A study of Mus musculus with 125 samples.

Results

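Prox1 and Bfsp1 are 2 of the 43421 genes in a table of RNA counts from single mouse embryos at the 2-cell stage. They were chosen by name because their counts separate reciprocal hybrids of the strains JF1/Ms and C57BL/6, so their difference between the crosses is described here and not tested. Per the labels' protocols, zygotes were picked at 10 h after fertilization and lost their second polar body to a micromanipulator, and each embryo was lysed whole at 34 h. The labels separate zygotes with 2 pronuclei (2PN), which carry 1 pronucleus from each parent, from zygotes with 1 pronucleus (1PN).

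Hybrids labelled JF1/Ms x C57BL/6 are called JxB here, and those labelled C57BL/6 x JF1/Ms are called BxJ. Which of the strains supplied the oocytes is not given in the labels. JxB comprised 21 embryos from 2PN zygotes, 3 from 1PN zygotes and 4 from 1PN zygotes that the submitters called parthenogenetic in silico, called uniparental 1PN here. BxJ comprised 43, 11 and 8 embryos of the same 3 kinds. A further 31 embryos were parthenotes of C57BL/6, which have no paternal genome. All of these embryos had their second polar body removed and received no drug or genetic change that the labels name. JF1/Ms is an inbred strain derived from Japanese fancy mice, and its genome differs from that of C57BL/6, the strain behind the reference genome, at many bases.

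Prox1 encodes a homeodomain transcription factor that directs lymphatic endothelial identity and takes part in the growth of the liver and the elongation of lens fibre cells. Bfsp1 encodes filensin, an intermediate filament protein that pairs with the product of Bfsp2 to build the beaded filament of lens fibre cells. At the 2-cell stage the mouse embryo switches from RNA stored in the oocyte to RNA made from its own genome, and both kinds of RNA are present in a whole-embryo library.

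In the count table Prox1 is ENSMUSG00000010175 and Bfsp1 is ENSMUSG00000027420. In RefSeq's GRCm38.p6 table Prox1 spans chromosome 1 from 190118035 to 190170827, and Bfsp1 spans chromosome 2 from 143826528 to 143915219. Both are protein-coding genes on the minus strand. The RefSeq promoter window of each gene, 250 bases before and 50 bases after an annotated start, is shown because these are starts from which the RNA that separates the crosses could be read. The Prox1 window lies at chr1:190170778-190171077 and the Bfsp1 window at chr2:143863124-143863423, both printed 5′ to 3′ on the minus strand. Capitals mark matches, on either strand, to the TATA box TATAAA, the GC box GGGCGG, the CCAAT box, the homeobox site TAATCC, the nuclear receptor half-site AGGTCA and the Maf half-site TGCTGA.
Prox1: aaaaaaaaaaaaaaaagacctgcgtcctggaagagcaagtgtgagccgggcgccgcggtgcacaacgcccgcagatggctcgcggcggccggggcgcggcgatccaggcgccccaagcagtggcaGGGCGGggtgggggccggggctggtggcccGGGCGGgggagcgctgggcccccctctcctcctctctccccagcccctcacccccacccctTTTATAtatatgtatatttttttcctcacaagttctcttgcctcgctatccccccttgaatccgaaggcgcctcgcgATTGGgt
Bfsp1: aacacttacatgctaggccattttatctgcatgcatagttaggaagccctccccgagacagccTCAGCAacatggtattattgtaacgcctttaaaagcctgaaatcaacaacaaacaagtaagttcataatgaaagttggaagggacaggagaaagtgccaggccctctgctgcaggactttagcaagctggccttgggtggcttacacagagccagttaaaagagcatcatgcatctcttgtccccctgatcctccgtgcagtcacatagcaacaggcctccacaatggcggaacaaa

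The Prox1 window was 64.3% G and C with 25 CG pairs, and the Bfsp1 window 47.7% with 4 CG pairs. Over 32851 RefSeq windows of the same length (chromosome 18 left out) the medians were 52.7% and 7 pairs. In the Prox1 window the TATA box match began at base -34 from the start, read on the opposite strand, and 2 GC box matches began at -125 and -95. A CCAAT match, also on the opposite strand, began at base 44. Shares of all windows with a match were 13.6% for the TATA box, 35.7% for the GC box and 37.4% for the CCAAT box. The Bfsp1 window held 1 of the 6 motifs, a Maf half-site on the opposite strand at base -187, which 19.5% of all windows hold. Neither window held TAATCC (7.1% of windows) or AGGTCA (16.3%). The E-box CANNTG, found in 72.3% of windows and not capitalised, matched 2 times in the Prox1 window and was not in the Bfsp1 window. The Bfsp1 window lies inside the gene's RefSeq span, at the start of a shorter transcript. A second Prox1 window in the table, at chr1:190169466-190169765, held 1 GC box match and is not shown.

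Library depth ran from 533276 to 4887274 counts, with a median of 3392406, and JxB 2PN libraries were shallower (median 2522056) than BxJ 2PN libraries (median 3867740). All 6 fixed markers of the 2-cell stage, such as Zscan4c and Zfp352, and all 6 oocyte-derived markers, such as Zp3 and Gdf9, had counts in every group. Levels are given as CPM, counts scaled to the library total, a share of an embryo's counted RNA, so a lower share cannot be told apart from more RNA of other genes. Of 4 libraries left out of all comparisons, 3 labelled of low quality and 1 labelled dead, none had a count of either gene, and the shallowest of them held 4803 counts in all. JxB uniparental 1PN embryos 1 and 2 stood apart from their group, with 1.06 and 154 summed CPM of the 2-cell markers against 3046 in embryo 3 and 2993 in embryo 7. Results of Prox1 and Bfsp1 that rest on this group are given with these 2 embryos and, beside that, embryo by embryo or without them.

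Prox1 was present in all 28 JxB embryos and nearly absent from BxJ. In JxB 2PN embryos the lowest, median and highest values were 7.20, 30.5 and 304 CPM, with a mean of 45.9 ± 62.8 (SD, n = 21). In BxJ 2PN embryos the median was 0 and the highest value 1.06 CPM, with a mean of 0.0729 ± 0.24 (SD, n = 43). Every JxB 2PN embryo thus stood above every BxJ 2PN embryo. The ratio of the means was 629.7 (95% counting interval 351.9 to 1261, from the 11 counts in all 43 BxJ 2PN embryos together). This and later counting intervals cover counting error alone, take the JxB mean as it stands and leave out the spread between embryos. Prox1 had at least 1 count in 5 of these 43 embryos, or 11.6% of them (exact binomial 95% interval 3.89% to 25.1%), and never more than 4 counts.

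Bfsp1 followed the same division with a wider spread. JxB 2PN embryos ranged from 0.267 CPM, a single count in embryo 16, through a median of 49.9 to 279 CPM, with a mean of 62.3 ± 74.2 (SD, n = 21). Among BxJ 2PN embryos 41 had no count, embryo 43 had 1 count and embryo 42 had 6 counts (1.95 CPM), for a mean of 0.0522 ± 0.30 (SD, n = 43). The 2 groups overlapped, since JxB embryo 16 lay below BxJ embryo 42; the other 20 JxB 2PN embryos were above all BxJ 2PN embryos, the lowest of them at 3.47 CPM. The ratio of the means was 1195 (counting interval 580.0 to 2972, from 7 BxJ counts). Of these counts 6 came from BxJ embryo 42, and without it, in a comparison added after seeing the data, the ratio was 8924 from the 1 count left (counting interval 1602 to 352499).

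**Figure D1:**
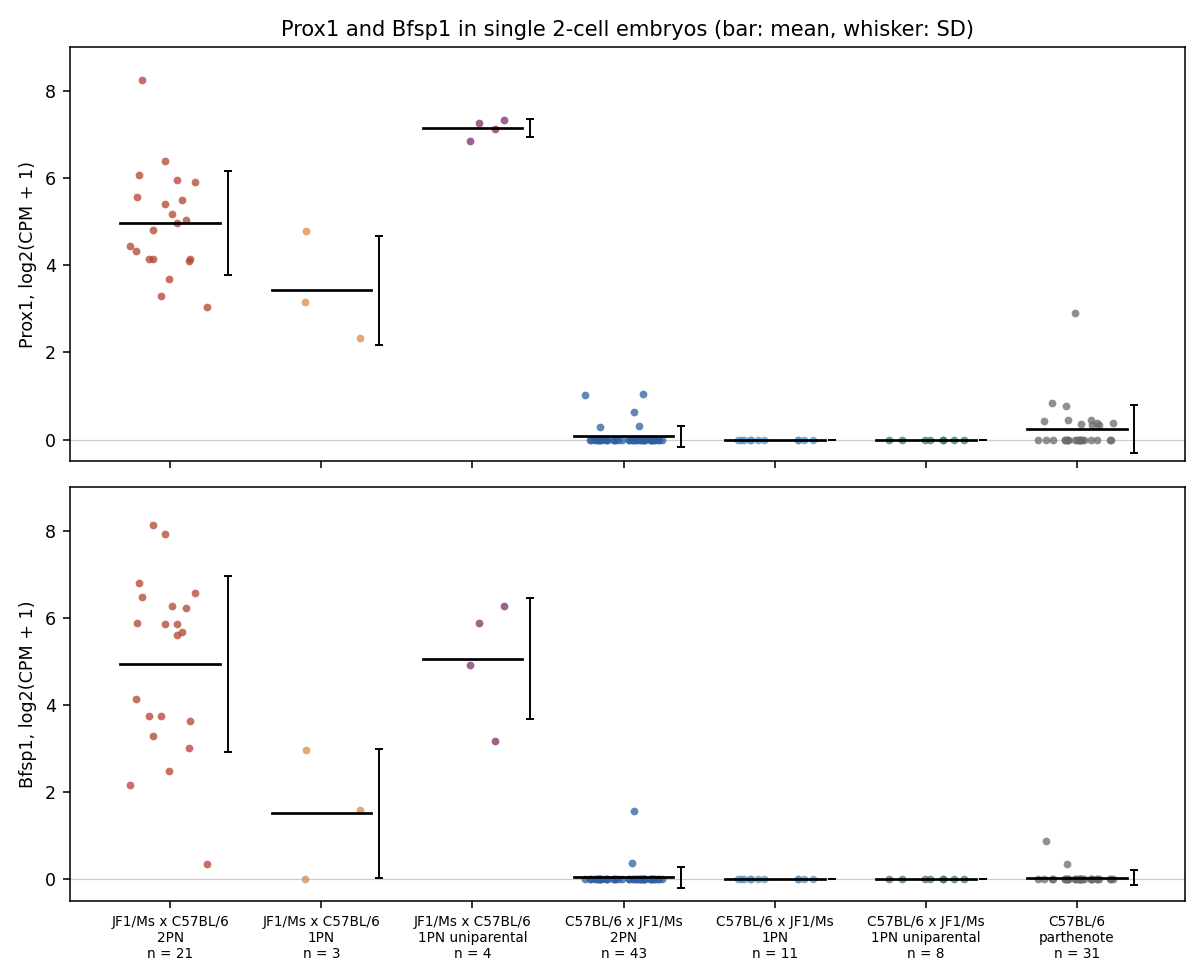
Level of Prox1 (top) and Bfsp1 (bottom) in each embryo on a log2(CPM + 1) scale, by cross and kind of zygote; bars are group means and whiskers SD. Prox1 is above 4 CPM in every JF1/Ms x C57BL/6 embryo and at or below 1.06 CPM in every C57BL/6 x JF1/Ms embryo, while Bfsp1 reaches 0 in 1 JF1/Ms x C57BL/6 1PN embryo.

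BxJ 2PN libraries were the deeper ones and had the lower shares of embryos with a count. Within JxB 2PN embryos Bfsp1 CPM was higher in shallower libraries (r = -0.65 against log2 depth). The part of depth in the difference in level between the crosses was not tested. With every library thinned to the shallowest, at 533276 counts, the expected share of embryos with a Prox1 count was 99.9% in JxB 2PN and 3.36% in BxJ 2PN. For Bfsp1 the thinned shares were 94.9% and 1.95%, against unthinned shares of 100% and 4.65%. The labels' accessions come in 2 runs, which the labels do not call batches, and both hold embryos of both crosses. In the first run Prox1 averaged 51.4 CPM in 16 JxB 2PN embryos and 0.10 CPM in 29 BxJ 2PN embryos. In the second it averaged 28.2 CPM in 5 JxB and 0.0159 CPM in 14 BxJ embryos. Bfsp1 averaged 55.8 CPM and 83.1 CPM in JxB in the first and second run, and in BxJ it had no count in the first run and averaged 0.16 CPM in the second.

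How many genes share this distribution was counted with the cutoff set at the number of BxJ 2PN embryos with a Prox1 count, so that the members pass by construction. Of the 24380 genes that passed the filter on low counts, 4 had a count in every JxB 2PN embryo and in at most 5 of the 43 BxJ 2PN embryos. Those with a full gene symbol were Prox1, Bfsp1 and Sntb1, the last of which encodes a syntrophin of the dystrophin complex and averaged 21.2 CPM in JxB and 0.354 CPM in BxJ 2PN embryos. In the opposite direction 3 genes had a count in every BxJ 2PN embryo and in no larger a share of JxB 2PN embryos. Across the tested genes, 14 had all JxB 2PN embryos above all BxJ 2PN embryos, Prox1 among them, and 14 had all of them below. By edgeR's quasi-likelihood test 18.8% of tested genes were called higher in JxB than in BxJ 2PN embryos and 19.1% lower, at a Benjamini-Hochberg adjusted p under 0.05. The members were chosen on this contrast and passed the filter through the group where they are high, so nothing is read from their place in it.

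Embryos from 1PN zygotes showed the same division, and their contrast between the crosses was also part of the choice of genes. JxB 1PN embryos 4, 5 and 6 had 4.03, 7.97 and 26.4 CPM of Prox1, a mean of 12.8 ± 11.96 (SD, n = 3), and none of 11 BxJ 1PN embryos had a count. Against the 3 counts over the group that a finding of 0 allows, 0.0796 CPM, JxB 1PN embryos were at least 160.9-fold higher. The same 3 embryos had 2.02, 0 and 6.78 CPM of Bfsp1, a mean of 2.93 ± 3.48 (SD, n = 3), and the 11 BxJ 1PN embryos had no count, a difference of at least 36.8-fold. These bounds, and those of uniparental 1PN embryos below, limit the BxJ side only and take the JxB mean as it stands. Without embryo 6, the highest for both genes, the Bfsp1 bound fell to 3.66 on the log2 scale from 5.20. The Prox1 bound fell to 6.24 from 7.33.

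Uniparental 1PN embryos gave the highest Prox1 mean of the 7 groups. JxB uniparental embryos 1, 2, 3 and 7 had 159, 154, 115 and 139 CPM, a mean of 142 ± 19.9 (SD, n = 4), and the 8 BxJ uniparental embryos had no count. The difference was at least 1295-fold against a floor of 0.11 CPM. Embryos 1 and 2, nearly without 2-cell markers, and embryos 3 and 7, with them, thus all had Prox1 between 115 and 159 CPM. Bfsp1 in these 4 embryos was 76.4, 57.7, 29.4 and 7.98 CPM, a mean of 42.9 ± 30.2 (SD, n = 4), at least 391-fold above the 8 BxJ uniparental embryos, which had none. All 4 JxB uniparental embryos were thus above all 8 of BxJ for both genes. How many of all tested genes separate these 2 groups in the same way was not counted.

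Parthenotes, whose genome is C57BL/6 alone, were far below JxB embryos in mean level, as BxJ embryos were. Prox1 had a count in 11 of 31 parthenotes, 35.5% of them, with a median of 0, a highest value of 6.50 CPM and a mean of 0.338 ± 1.16 (SD, n = 31). The share with a Prox1 count was 11.6% in BxJ 2PN embryos, at a mean of 0.0729 CPM. With libraries thinned to the shallowest, the expected shares were 9.74% in parthenotes and 3.36% in BxJ 2PN embryos, and this difference was not tested. One parthenote, embryo 11, supplied 12 of the 24 Prox1 counts, and no other parthenote had more than 2. That library also had 2048 summed CPM of the oocyte-derived markers and 824 of the 2-cell markers, against parthenote medians of 855 and 2056; the part of either in its Prox1 value was not tested. Bfsp1 had 3 counts over 2 parthenotes, none of them embryo 11, with a mean of 0.0352 ± 0.15 CPM (SD, n = 31). Mean Prox1 in JxB uniparental 1PN embryos was 419.8 times that in parthenotes (counting interval 282 to 655), and every one of the 4 was above every parthenote. How many of all tested genes separate parthenotes from these 4 or from JxB 2PN embryos was not counted. Without parthenote 11 the ratio, added after seeing the data, was 1071 (counting interval 613 to 2073). The lowest JxB 2PN embryo, at 7.20 CPM, was above the highest parthenote at 6.50 CPM, and JxB 1PN embryo 4 was below it.

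Ordered by mean Prox1, JxB uniparental 1PN embryos came first, followed by JxB 2PN, JxB 1PN, parthenotes, BxJ 2PN and the 2 remaining BxJ groups at 0. All neighbours in this order overlapped, the first pair only through JxB 2PN embryo 8 at 304 CPM, as the next highest 2PN embryo had 83.5 CPM. For Bfsp1 JxB 2PN came first, then JxB uniparental 1PN, JxB 1PN, BxJ 2PN, parthenotes and the same 2 BxJ groups at 0, and all neighbours in that order overlapped except JxB uniparental and JxB 1PN embryos. Of the low counts in BxJ and parthenotes, 5 BxJ 2PN embryos had Prox1 alone, 2 had Bfsp1 alone and none had both. Among parthenotes 11 had Prox1 alone, 2 had Bfsp1 alone and none had both, numbers too small to show whether the counts of the 2 genes fall together. In JxB both genes had counts in 27 of 28 embryos, the exception being 1PN embryo 5, which had Prox1 alone.

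Within the crosses the kind of zygote was compared with edgeR over all 24380 tested genes. Values of 2PN and of 1PN embryos enter both these tests and the contrasts between the crosses on which the genes were chosen. Neither side of a test is thus independent of that choice, and both genes passed the filter on low counts through JxB. In JxB, uniparental 1PN embryos had more Prox1 than 2PN embryos, with a log2 fold change of 1.51 ± 0.44 (SE; edgeR adjusted p = 0.00501), and 4 of 4 were above the 2PN median. In that comparison 14.7% of tested genes were called higher, so a call in this direction was common. The median log2 fold change of all tested genes was -0.64, and Prox1 stood 2.15 above it; with DESeq2-type size factors in edgeR the median moved to -0.27 and the Prox1 value to 1.83. The Prox1 call was lost with DESeq2 (1.83, adjusted p = 0.129), with the earlier quasi-dispersion estimate of edgeR (1.53, adjusted p = 0.0577) and without embryos 1 and 2 (1.37, adjusted p = 0.21). Over all alternatives the adjusted p ran from 3.1e-06 to 0.21. Oocyte-derived markers were also high in these embryos, at 3615, 5390, 1448 and 1745 summed CPM in embryos 1, 2, 3 and 7, against 245 to 3090 and a median of 546 in JxB 2PN; their part in the Prox1 difference was not tested.

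Bfsp1 gave a log2 fold change of -0.41 ± 0.71 (SE; edgeR adjusted p = 0.703) in the same comparison, with a 95% interval of -1.80 to 0.99, and 2 of 4 embryos were above the 2PN median. Without embryos 1 and 2 it was -1.56 (edgeR adjusted p = 0.596), and these 2 embryos are the ones above the 2PN median. A test of whether Prox1 and Bfsp1 differed in this response was not made. In JxB 1PN embryos that were not called uniparental, both genes had lower point estimates than in 2PN embryos without passing the threshold. For Prox1 the log2 fold change was -1.77 ± 0.68 (SE; p = 0.0117, edgeR adjusted p = 0.411) and for Bfsp1 -4.19 ± 1.23 (SE; p = 0.00139, edgeR adjusted p = 0.354). All 3 embryos were below the 2PN median for both genes, and the median of all genes was -0.38. In this comparison of 3 with 21 embryos edgeR called 2 genes, 0.0082% of those tested, while 2232 had an unadjusted p under 0.05 and DESeq2 called 671. Without a filter on low counts Bfsp1 passed, at -4.20 (edgeR adjusted p = 0.0011).

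In BxJ no contrast could be drawn for either gene above counting noise, since 1PN and uniparental 1PN embryos had no count and 2PN embryos 11 counts of Prox1 and 7 of Bfsp1 in all. The edgeR adjusted p was 1 for both genes in 1PN embryos, a comparison in which 0.197% of tested genes were called. In uniparental 1PN embryos it was 0.62 for Prox1 and 0.786 for Bfsp1, and 31.6% of tested genes were called. At this depth a fall from the BxJ 2PN level was not detectable for Prox1 or Bfsp1. A rise is bounded by the floors of 3 counts over a group, 0.0796 CPM in BxJ 1PN and 0.1095 CPM in BxJ uniparental 1PN embryos.

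Among the 21 JxB 2PN embryos Prox1 varied together with the summed oocyte-derived markers. How many other genes do so was not counted, so this is not shown to be particular to Prox1 or, below, to Bfsp1. The relation was looked for after the values had been seen, as 1 of 15 relations of the 2 genes with marker sums, depth and each other, 8 of them within sets of embryos. On a log2(CPM + 1) scale Prox1 correlated with the summed oocyte-derived markers at Pearson's r = 0.80 (permutation p = 4e-05, adjusted 0.00037) and Spearman's rho = 0.70 (permutation p = 0.00062, adjusted 0.0031). Embryo 8, highest in Prox1 at 304 CPM, was also highest in these markers at 3090 summed CPM. Without the 2 embryos farthest from the marker median r was 0.62, and within the 16 embryos of the first run of accessions it was 0.86; the second run held 5, too few for a value. For the 2-cell markers r was -0.19 (permutation p = 0.394, adjusted 0.422) and rho 0.078 (p = 0.738 by permutation, adjusted 0.79). For log2 depth r was -0.24 (permutation p = 0.301, adjusted 0.354) and rho -0.44 (p = 0.0495 by permutation, adjusted 0.108).

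**Figure D2:**
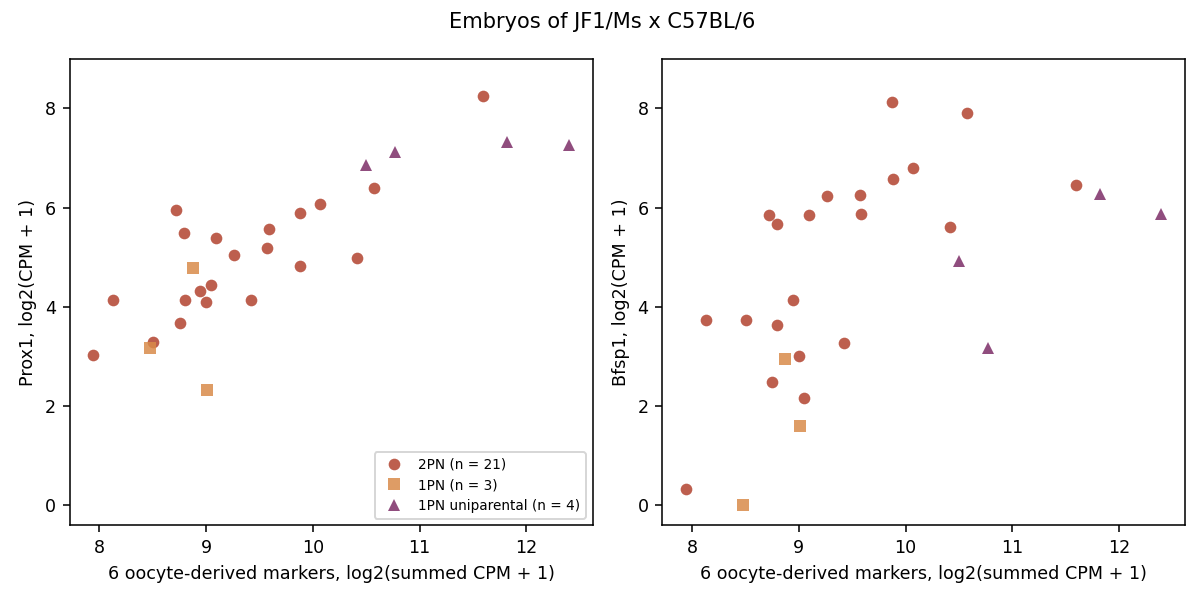
Prox1 (left) and Bfsp1 (right) against the summed level of 6 oocyte-derived markers in each JF1/Ms x C57BL/6 embryo, both axes on a log2(CPM + 1) scale. Prox1 is higher in embryos with a higher sum of these markers (r = 0.80 over the 21 2PN embryos). The 4 uniparental 1PN embryos lie at the upper right of that panel. For Bfsp1, embryos 3 and 7 of these 4, at 29.4 and 7.98 CPM, lie below the 2PN median of 49.9 CPM.

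Bfsp1 went with Prox1 across the same 21 embryos. On the log2(CPM + 1) scale the 2 genes gave r = 0.75 (permutation p = 5e-05, adjusted 0.00037) and rho = 0.81 (permutation p = 1e-05, the smallest the permutations can give, adjusted 0.00015). Without the 2 embryos farthest from the Prox1 median r was 0.80, and within the first run of accessions it was 0.84. Bfsp1 also correlated with the oocyte-derived markers, at r = 0.68 (permutation p = 0.00063, adjusted 0.0031) and rho = 0.71 (permutation p = 0.00062, adjusted 0.0031), with r = 0.69 without the 2 farthest embryos and 0.76 in the first run. It was lower in deeper libraries, with r = -0.65 against log2 depth (permutation p = 0.0013, adjusted 0.005) and rho = -0.55 (permutation p = 0.011, adjusted 0.04), r = -0.61 without the 2 farthest and -0.65 in the first run; the part of depth in the other relations of Bfsp1 was not tested. The shallowest library, embryo 21 with 533276 counts, had the highest Bfsp1 value. For the 2-cell markers r was 0.27 (permutation p = 0.229, adjusted 0.312) and rho 0.46 (p = 0.0379 by permutation, adjusted 0.108), with r = 0.63 without the 2 embryos farthest from the marker median and 0.16 in the first run.

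Bfsp1 values of these embryos were cut at a gap, with 9 between 0.267 and 16.6 CPM, 12 between 47.9 and 279 CPM and none between. It was the widest gap on the log2(CPM + 1) scale that left more than a few embryos on each side. A wider gap, from 0.267 to 3.47 CPM, set off embryo 16 alone, and the cut does not show separate kinds of embryo. The 9 below the gap had 7.20 to 20.8 CPM of Prox1 and the 12 above it 27.2 to 304 CPM, which is given as a description with no test because the sets are made from Bfsp1 itself. Within either set the range of Bfsp1 is narrow and a relation is harder to see. Against Prox1 r was 0.53 below (exact permutation p = 0.137) and 0.10 above (permutation p = 0.73), and against the oocyte-derived markers 0.39 below (exact permutation p = 0.306) and 0.40 above (permutation p = 0.19). No relation within a set passed after adjustment over all 15, the lowest adjusted p being 0.227 for r and 0.108 for rho.

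**Figure D3:**
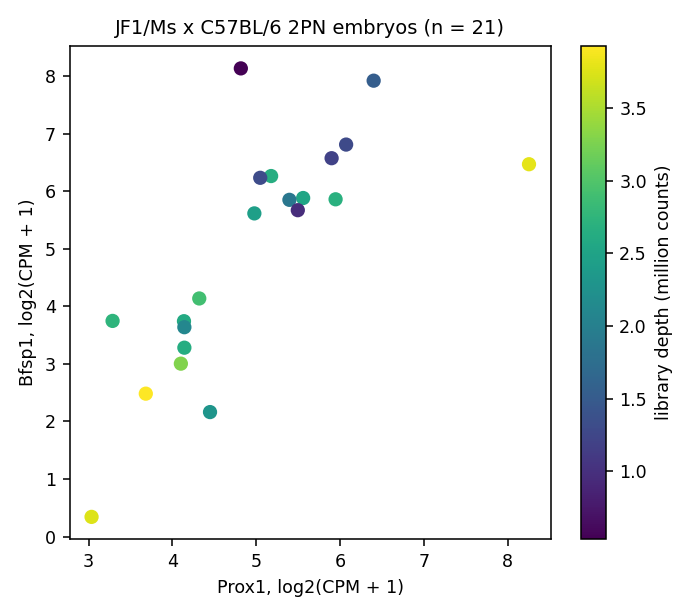
Bfsp1 against Prox1 in the 21 JF1/Ms x C57BL/6 2PN embryos, both on a log2(CPM + 1) scale, with points coloured by library depth. No embryo lies between 16.6 and 47.9 CPM of Bfsp1, and the shallowest library, 533276 counts, has the highest Bfsp1 value.

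The genes on either side of each member were tested in the 2PN contrast between the crosses, to see how far along the chromosome a difference was found. Of the 11 tested neighbours of Prox1, 3 were higher in JxB and 2 lower, beside 18.8% and 19.1% of all tested genes. The nearest, Prox1os, an antisense transcript that overlaps the Prox1 span by 532 bases, averaged 3.15 ± 6.32 CPM in JxB (n = 21) and 0.0113 ± 0.0739 CPM in BxJ (SD, n = 43). Its log2 fold change was 5.62 ± 1.05 (SE; edgeR adjusted p = 1.1e-05), and counts came from 15 of 21 JxB and 1 of 43 BxJ embryos. The sources used here do not say whether strand was used in counting, so within those 532 bases reads of Prox1os and Prox1 cannot be told apart; how many of the Prox1os counts lie there is not known from counts per gene. Kcnk2, a potassium channel gene, was higher by 1.87 ± 0.62 and Ptpn14, a tyrosine phosphatase gene, by 1.68 ± 0.57 on the log2 scale. Vash2, which encodes a tubulin carboxypeptidase, fell by 2.33 ± 0.71 and Flvcr1, a transporter gene, by 0.69 ± 0.23. Kctd3, Cenpf, Smyd2, Rps6kc1, Angel2 and Spata45 did not pass; of these Cenpf, a kinetochore protein gene at 118 CPM in JxB and 138 CPM in BxJ, had a log2 fold change of -0.21 ± 0.16 (SE).

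Of 7 tested neighbours of Bfsp1, 2 were higher in JxB and none lower, beside the same 18.8% and 19.1% of all tested genes. Pcsk2, a prohormone convertase gene 10244 bases from Bfsp1, averaged 1.36 ± 2.39 CPM in JxB and 0.064 ± 0.239 CPM in BxJ 2PN embryos (SD, n = 21 and 43), a log2 fold change of 3.29 ± 0.81 (SE; edgeR adjusted p = 0.00069). Counts of Pcsk2 came from 12 of 21 JxB and 4 of 43 BxJ embryos. Rrbp1, which encodes a ribosome-binding protein of the endoplasmic reticulum, was higher by 0.61 ± 0.22 on the log2 scale (edgeR adjusted p = 0.021). Dstn, the actin-severing destrin gene only 112 bases from the other end of Bfsp1, averaged 182 ± 93.3 CPM in JxB and 169 ± 66.2 CPM in BxJ (SD), a log2 fold change of 0.15 ± 0.16 (SE; edgeR adjusted p = 0.477). Snx5, Snrpb2, Kif16bos and Snord17 did not pass either.

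**Figure D4:**
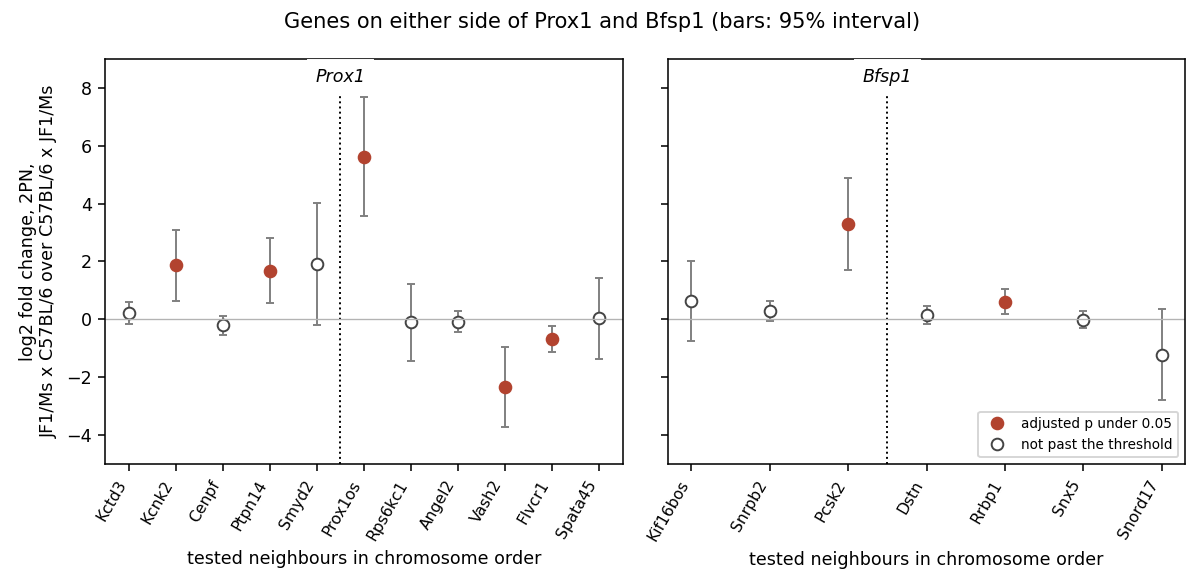
Log2 fold change between the crosses in 2PN embryos for the tested genes on either side of Prox1 (left) and Bfsp1 (right), in chromosome order and not to scale, with bars of the 95% interval; filled points passed an adjusted p of 0.05. Prox1os at 5.62 and Pcsk2 at 3.29, each next to a member, are the highest points, and Dstn on the other side of Bfsp1 lies at 0.15.

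Genes of the lens, lymphatic and liver genes linked to Prox1, and genes of intermediate filaments and their linkers were followed in 3 lists. Their calls are to be read beside the 18.8% of all tested genes called higher and the 19.1% called lower. Bfsp2, whose product pairs with filensin, fell to the filter on low counts. It averaged 0.0063 CPM in JxB 2PN embryos, with a count in 1 of 21, and 0.119 CPM in BxJ 2PN embryos, with a count in 5 of 43. Of 21 tested genes of the lens, 3 were higher in JxB 2PN embryos and 4 lower, near those shares, with a median log2 fold change of -0.18 beside -0.08 over all tested genes. The lens connexin gene Gja3 was higher by 1.53 ± 0.30 (SE; edgeR adjusted p = 1.8e-05), at 22.8 ± 13.2 CPM in JxB and 8.07 ± 7.49 CPM in BxJ (SD). Maf, a transcription factor gene of lens fibre cells, was higher by 1.66 ± 0.53 and Tdrd7, an RNA granule protein gene, by 1.46 ± 0.47. Lgsn, the lengsin gene, fell by 3.20 ± 0.37 (SE; edgeR adjusted p = 3.6e-13), from 9.39 ± 5.24 CPM in BxJ to 1.17 ± 2.34 CPM in JxB. The lens water channel gene Mip fell by 3.78 ± 1.11, the cell cycle inhibitor gene Cdkn1c by 1.49 ± 0.45 and the RNA-binding protein gene Caprin2 by 0.63 ± 0.17.

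The list of lymphatic and liver genes linked to Prox1 had 3 of 23 tested members higher and 3 lower, beside 18.8% and 19.1% of all tested genes, with a median of 0.09. Nr2f2, which encodes the COUP-TFII partner of Prox1 in lymphatic endothelium, was higher by 1.61 ± 0.59, the receptor tyrosine kinase gene Tie1 by 1.07 ± 0.31 and the nuclear receptor gene Esrra by 0.44 ± 0.19. Hhex, a homeobox gene of the early liver, fell by 1.13 ± 0.26 (SE; edgeR adjusted p = 0.00028), from 53.3 ± 44.0 CPM in BxJ to 25.1 ± 22.7 CPM in JxB (SD). Cebpa, a transcription factor gene of hepatocytes, fell by 3.30 ± 0.94 at levels of 1.35 CPM and below, and the histone demethylase gene Kdm1a by 0.55 ± 0.21.

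Among 27 tested genes of intermediate filaments and their linkers 4 were higher in JxB and 5 lower, again near the 18.8% and 19.1% of all tested genes, with a median of -0.0054. Neurofilament genes went both ways, with Nefl higher by 4.91 ± 0.94 at 1.60 CPM in JxB and 0.0299 CPM in BxJ, and Nefh lower, from 16.3 ± 16.3 CPM in BxJ to 2.94 ± 4.99 CPM in JxB (SD). Epb41, a protein 4.1 gene of the membrane skeleton, was higher by 1.26 ± 0.20 (SE; edgeR adjusted p = 1e-07), as were Actn4 by 0.76 ± 0.17 and Sptbn1 by 0.82 ± 0.24, which encode an actinin and a spectrin. Krt19, Plec, Dsp and Sptan1 were lower, and Krt19, a keratin gene, had no count in JxB.

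Genes whose values across all kept embryos were most like those of Prox1, by Pearson's r of log2(CPM + 1), were Bfsp1 at 0.93, Sntb1 at 0.92, Dgkb at 0.91, Nfic at 0.90 and Lipo2 at 0.90. For Bfsp1 they were Prox1 at 0.93, Nfic at 0.89, Sntb1 at 0.88, Dgkb at 0.87 and Rn7s2, a signal recognition particle RNA gene with near-identical copies, at 0.85. These values are descriptions over 7 groups that differ in cross. Dgkb, a diacylglycerol kinase gene on chromosome 12, averaged 33.4 CPM in JxB 2PN, 145 CPM in JxB uniparental 1PN and 0.594 CPM in BxJ 2PN embryos; in uniparental embryos 1, 2, 3 and 7 it had 45.9, 95.7, 161 and 276 CPM. Nfic, a nuclear factor I gene on chromosome 10, averaged 29.7 CPM, 89.3 CPM and 0.42 CPM in the same groups, and its uniparental mean was 30.7 CPM without embryos 1 and 2. Lipo2, a lipase gene on chromosome 19, averaged 13.5 CPM, 44.9 CPM (39.1 CPM and 34.9 CPM in embryos 3 and 7) and 0.0554 CPM, and Sntb1 lies on chromosome 15. Of the 6 genes, Prox1, Bfsp1, Sntb1, Dgkb, Nfic and Lipo2, each lies on a chromosome of its own.

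Within the 21 JxB 2PN embryos, over 16386 genes, other genes were most like each member. For Prox1 they were Crk, Usp21, Cop1, Map2k4 and Igf2bp3, with r between 0.90 and 0.91, and all 5 had higher mean levels in JxB uniparental 1PN than in JxB 2PN embryos, for example 725 CPM against 351 CPM for the kinase gene Map2k4. All 5 means were also higher without uniparental embryos 1 and 2, at 580 CPM for Map2k4. For Bfsp1 they were Ccser2, Msh3, Fam149b, Disp1 and Mxd4, with r between 0.87 and 0.89, taken across the gap in Bfsp1 values. These 5 also had higher means in JxB uniparental 1PN than in JxB 2PN embryos, for example 1511 CPM against 512 CPM for Ccser2. Without uniparental embryos 1 and 2 all 5 means were again higher, at 1614 CPM for Ccser2, so this trait does not set the 2 sets of genes apart. How many of the 16386 genes also had higher uniparental means was not counted, so nothing particular to these sets is read from it. Unlike the members, these 10 genes had BxJ 2PN means of at least 9.67 CPM, the lowest being that of Disp1. They share libraries and depth, and the order among near-equal values of r is not meaningful with 21 embryos.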

How the data were processed

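Single 2-cell embryos were sequenced from SMART-Seq v4 and Nextera XT libraries, per the labels' protocols. Tools named per the submitters' processing notes are HISAT2 2.0.5 and featureCounts 2.0.0, with GRCm38 as the build. The authors deposited estimated counts for each gene without scaling to depth, and 28.4% of the non-zero values are not whole. The annotation release, strandedness and treatment of reads shared by genes are not stated in the sources used here. Whether JF1/Ms reads align to this build as well as C57BL/6 reads was not tested.

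CPM used unrounded counts. For tests the estimated counts were rounded, filtered with filterByExpr by group and fitted by edgeR 4.0.16 under R 4.3.3 (TMM factors, 7 group means, quasi-likelihood F test), with Benjamini-Hochberg adjustment over 24380 genes and a threshold of 0.05. A run of the fit on simulated counts served only as a self-test of the code, and no result here rests on it. Alternatives, DESeq2 1.42.0 among them, are given in the closing section. Parentage and litters are not named, so p-values measure the spread between embryos only. Intervals and floors of 3 counts cover counting error only. Thinning was a hypergeometric expectation. Gene identifiers were matched to symbols for 43266 of 43421 genes.

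The members, lists and motifs were chosen with earlier results of these data known. Genes named are the members, the 6 nearest on each side with a proper symbol, list members past the threshold and the 5 genes most like each member. Of the 24 neighbours, 2 were not analysed here and 4 fell to the filter on low counts. Of 3 lists, all 32 lens genes and all 29 Prox1 programme genes were in the table, as were 29 of 30 filament genes. Sntb1 was named after its values were seen.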

Additional observations from a re-analysis of the deposited data

How the results depend on the processing

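Of 122 values of the within-cross tests of Prox1 and Bfsp1 under alternatives, 117 kept their direction and their side of the threshold. This total includes every BxJ value, 19 and 16 of Prox1 and 17 and 14 of Bfsp1 in 1PN and in uniparental embryos. With no count in those embryos, direction and lack of a call were all but fixed, so these values say nothing about stability. Of 15 values of Prox1 in JxB uniparental embryos 12 stayed. Prox1 in JxB uniparental 1PN against 2PN embryos fell short with DESeq2 (1.83), with the earlier quasi-dispersions (1.53) and without embryos 1 and 2 (1.37); the last 2 settings were chosen after seeing the data, and the cause was not tested. Bfsp1 in JxB 1PN embryos passed without the filter on low counts (-4.20). Leaving out 1 embryo at a time gave 1.41 to 1.59 for Prox1 and -0.64 to -0.05 for Bfsp1 in JxB uniparental embryos, and -2.80 to -1.34 and -5.67 to -3.55 in JxB 1PN embryos. In the ratio of JxB to BxJ the log2 bound ran from 6.24 to 7.76 for Prox1 and 3.66 to 5.79 for Bfsp1 in 1PN embryos, and from 10.28 to 10.43 and 8.18 to 8.96 in uniparental embryos. With the second run of accessions alone it was 10.79 for Prox1 in 2PN embryos, against 1 BxJ count, and 6.84 for Prox1 and 2.72 for Bfsp1 in uniparental embryos, where 1 embryo a group gives a higher floor.

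Without BxJ embryo 42, a setting chosen after seeing the data, the Bfsp1 ratio in 2PN embryos was 13.12 on the log2 scale, and it was 11.09, a bound, in the first run and 9.02 in the second, against 10.22. Without embryos 1 and 2 Bfsp1 in JxB uniparental against 2PN embryos was -1.56.

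Embryo numbers do not pair the samples: the correlation of same-numbered embryos' deviations ran from -0.16 to 0.19 over the 4 comparisons. With the embryo number as a replicate block Bfsp1 in JxB uniparental embryos changed sign to 0.72 (adjusted p = 0.491), Prox1 there was 2.39, and Prox1 and Bfsp1 in JxB 1PN embryos were -2.31 and -5.37. The block fit gave no usable error for Bfsp1 in BxJ uniparental embryos and is left out there, as are fits of 2 BxJ groups, in which both genes fell to the filter, and Bfsp1 in the first run alone, with no count in either BxJ group. Ratios of medians could not be formed, as BxJ medians are 0.

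Numbers of genes called depended on the setting by over 1.5 times. In JxB 1PN embryos edgeR's 2 became 1 with RLE factors, 139 without the filter, 9 with the earlier quasi-dispersions, 0 with only the 2 groups, 0 with the block and 671 with DESeq2. In BxJ 1PN embryos 48 became 156 without the filter, 148 with the earlier quasi-dispersions, 14 with only the 2 groups, 0 with the block and 28 with DESeq2, and leaving out 1 embryo gave 0 to 54. In JxB uniparental embryos 8481 became 5319 with only the 2 groups and 1602 without embryos 1 and 2, and in BxJ uniparental embryos 7713 became 3854 with the block. Depth limits the BxJ values, where both genes are at or near 0.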
